A study of Mus musculus with 6 samples.

Results

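The transcripts described here are those of 8 genes, chosen by symbol from the 24411 genes of each library: the phagocyte NADPH oxidase subunits Cybb, Cyba, Ncf1, Ncf4 and Rac2, the superoxide dismutases Sod1 and Sod2, and catalase, Cat. All 8 had enough reads to be tested. They were measured by strand-specific RNA sequencing of total RNA depleted of ribosomal RNA, in primary microglia, the resident macrophages of the brain. Whole brains of 12 ICR mice aged 3 days were pooled, mixed glia were grown for 2 weeks, and the microglia on top were detached by shaking; more than 92% were positive for CD11b. The cells of 3 libraries received 1 µM FTY720 (fingolimod, a drug that cells phosphorylate into a ligand of sphingosine-1-phosphate receptors) together with 10 ng/ml LPS (lipopolysaccharide from the outer membrane of bacteria, the ligand of Toll-like receptor 4) for 4 h, and those of the other 3 libraries received 1 µM FTY720 alone for 4 h. Every library thus carries FTY720, so the comparison is of LPS added in its presence, and an effect of FTY720 itself cannot be read from it. The labels call the 3 libraries of a group independent RNA samples but do not say whether they came from separate cultures or pools of animals, so p-values measure the spread between these samples only.

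The phagocyte oxidase, NOX2, moves electrons from NADPH in the cytosol across a membrane onto oxygen and so makes superoxide. Its catalytic core is a pair of membrane proteins, and it works only after cytosolic subunits and a Rac GTPase have joined that core. Superoxide dismutases turn superoxide into hydrogen peroxide, in the cytosol or in mitochondria, and catalase breaks hydrogen peroxide down in peroxisomes. In microglia the oxidase is known for the oxidative burst of activated cells, and mitochondrial dismutase is a textbook target of inflammatory signalling in macrophages.

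Sequence ahead of the RefSeq start sites is shown for the 3 members that rose most, Sod2, Cybb and Sod1, and for Cat, whose groups overlapped. Each run holds 220 bases, from 250 to 31 bases before the RefSeq start (GRCm38.p6), read 5′ to 3′ on the gene's own strand. The windows are chr17:13007589-13007808 (plus strand) for Sod2, chrX:9469355-9469574 (minus) for Cybb, chr16:90220512-90220731 (plus) for Sod1 and chr2:103485184-103485403 (minus) for Cat. The RefSeq start lies 18447 bases inside the GENCODE gene span for Cybb and 993 bases inside it for Sod2, because GENCODE lists transcripts that begin further upstream, so these windows lie within the gene positions given with the results. For Sod1 and Cat both starts differ by 8 and 7 bases. Capitals mark matches, on either strand, to the NF-κB consensus, the GC box GGGCGG, the AP-1 site TGANTCA, the CCAAT box CCAAT and the antioxidant response element core TGACNNNGC.
Sod2: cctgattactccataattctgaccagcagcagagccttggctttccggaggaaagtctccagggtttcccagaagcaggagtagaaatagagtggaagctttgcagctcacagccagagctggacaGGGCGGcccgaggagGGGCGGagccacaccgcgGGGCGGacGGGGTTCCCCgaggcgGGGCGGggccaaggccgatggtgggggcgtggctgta
Cybb: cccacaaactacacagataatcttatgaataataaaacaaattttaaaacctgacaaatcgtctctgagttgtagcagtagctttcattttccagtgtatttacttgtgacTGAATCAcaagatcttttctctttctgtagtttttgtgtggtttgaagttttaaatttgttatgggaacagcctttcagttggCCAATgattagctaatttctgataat
Sod1: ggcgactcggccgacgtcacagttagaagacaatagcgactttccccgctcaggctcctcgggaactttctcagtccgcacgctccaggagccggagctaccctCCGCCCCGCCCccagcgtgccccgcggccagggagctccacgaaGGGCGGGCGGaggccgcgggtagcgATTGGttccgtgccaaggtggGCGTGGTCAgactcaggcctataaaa
Cat: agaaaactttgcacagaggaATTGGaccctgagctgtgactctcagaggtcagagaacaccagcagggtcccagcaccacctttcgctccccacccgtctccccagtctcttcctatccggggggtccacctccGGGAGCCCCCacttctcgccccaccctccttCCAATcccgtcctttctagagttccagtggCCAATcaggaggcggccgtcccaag
The Sod2 window held 4 GC boxes and 1 NF-κB match, which began 83 bases before the start between GC boxes and overlapped none of them. The Sod1 window held 4 GC boxes, in 2 overlapping pairs, with 1 CCAAT box and 1 antioxidant response element core. Cybb, with 32.3% G and C in its window against 64.1% in Sod2, had no GC box and instead 1 AP-1 match and 1 CCAAT box. The Cat window held 3 CCAAT boxes and 1 NF-κB match. Of the windows not shown, that of Ncf1 held 1 GC box and that of Cyba none of the motifs. Among 32851 RefSeq windows of the same length, 6.34% held an NF-κB match, 28.5% a GC box, 6.12% an AP-1 match, 31.0% a CCAAT box and 8.70% an antioxidant response element core. The NF-κB consensus was thus present both in Sod2, whose transcripts rose, and in Cat, whose transcripts gave no call. A match is a description of letters and not a shown binding site.

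With LPS added, transcripts of 4 of the 8 genes rose and those of 1 fell. Sod2 rose 3.37-fold, Cybb 2.47-fold, Sod1 2.05-fold and Cyba 1.41-fold, and Ncf4 was 1.72-fold lower. Ncf1, Rac2 and Cat did not pass the test. Called genes are those with an adjusted p under 0.05 in edgeR's quasi-likelihood test across 10124 genes. Of all genes tested, 46.0% were called, 23.3% higher and 22.7% lower, and the groups did not overlap for 54.0%, while they did not overlap for 6 of the 8 members. The median log2 fold change of the members was 0.31, beside -0.04 over all tested genes.

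The libraries held 2431775 to 3454647 reads in genes, of which ribosomal-RNA-like rows took 28.8% to 59.0%; FTY720 replicate 3 had the lowest share and FTY720 replicate 2 the highest. The first principal component, with 78.2% of the variance, separated the groups; on the second, with 7.37%, FTY720 replicate 3 lay at 22.4 and the other FTY720 libraries at -6.49 and -15.2. Microglia markers were present, C1qa and Trem2 among them, although Tmem119 had only 2 to 6 reads per library. The 9 microglia markers summed to 2736 to 3200 CPM (reads scaled to TMM-adjusted library size) with LPS added and 1814 to 1958 CPM with FTY720 alone, and 7 of the 8 tested were called higher and 0 lower. Markers of the oligodendrocyte lineage summed to 141 to 161 CPM with LPS added and 264 to 291 CPM with FTY720 alone. Those of neurons summed to 98.3 to 110.4 CPM and 181 to 243 CPM. Astrocyte markers did not fall in sum, with 104 to 144 CPM and 88.7 to 108 CPM. Of the 6 astrocyte markers tested, 2 were called higher and 1 lower. Fibroblast and mural markers summed to 51.5 to 80.3 CPM and 47.4 to 66.9 CPM, with 0 of 4 tested called higher and 0 lower. Markers of blood cells that carry the phagocyte oxidase or Rac2 had few or no reads. The 7 neutrophil markers in the table summed to 19 to 22 reads per library with LPS added and 3 to 15 with FTY720 alone. S100a9 was at 0, and the 1 neutrophil marker tested was called higher. The 5 lymphocyte markers summed to 1 to 4 reads and 0 to 1 reads, with Cd3g at 0. The 3 monocyte markers summed to 0 to 3 reads and 0 to 2 reads, with Ly6c2 at 0. The 3 endothelial markers summed to 21 to 35 reads and 8 to 16 reads, and the 1 tested was called higher. How far the shift in these markers bears on the members was not tested. In such bulk samples, fewer cells of a type and less RNA per cell cannot be told apart.

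Cybb encodes gp91phox, the catalytic subunit that carries the electrons (chromosome X, 9435252 to 9487771, minus strand, GRCm38). It had 1073, 1099 and 1003 CPM in the libraries with LPS added, against 451, 369.9 and 464 CPM in the FTY720 libraries. All 3 libraries with LPS stood above all 3 without it, with a gap wider than either group's range. The log2 fold change was 1.30 ± 0.11 (SE, n = 3 per group), with a 95% interval of 2.11 to 2.89 for the fold change and an edgeR adjusted p of 9.87e-10. When each library was instead scaled by offsets that follow its trend on expression level (loess offsets), the Cybb difference was 0.48 on the log2 scale, or 1.40-fold (adjusted p = 0.000261, where the alternatives ranged from 7.85e-28 to 0.00632).

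Cyba encodes p22phox, the partner that stabilises gp91phox in the membrane and gives the cytosolic subunits their docking site (chromosome 8, 122424776 to 122432930, minus strand). Its levels were 174, 173 and 205 CPM with LPS added and 146, 116 and 130.1 CPM with FTY720 alone. The groups did not overlap, but the gap between them was narrower than the range of the libraries with LPS. Its log2 fold change of 0.49 ± 0.12 (SE, n = 3 per group) passed the edgeR test (adjusted p = 0.00182). No call was left with loess offsets (0.06, adjusted p = 0.693) or with total library size alone, which counts the uneven ribosomal-RNA-like reads (0.15, adjusted p = 0.717). Over all alternatives the adjusted p ranged from 0.000108 to 0.717.

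The cytosolic subunits did not follow the membrane pair. Ncf4 encodes p40phox, which binds a phosphoinositide on the phagosome (chromosome 15, 78244801 to 78262580, plus strand). It had 15.8, 11.5 and 14.6 CPM with LPS added, against 23.5, 24.9 and 23.9 CPM with FTY720 alone. The 3 FTY720 libraries lay close together and above all libraries with LPS. Ncf4 fell by 0.78 ± 0.20 on the log2 scale (SE, n = 3 per group; edgeR adjusted p = 0.00262), on 27 to 42 reads per library with LPS added and 70 to 101 with FTY720 alone, and the call held in all 16 alternatives (adjusted p 0.000649 to 0.0304).

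Ncf1 encodes p47phox, the organiser subunit whose phosphorylation starts assembly (chromosome 5, 134220053 to 134229625, minus strand, with an exon that overlaps Gtf2ird2 on the other strand). Its levels were 22.5, 25.1 and 22.7 CPM with LPS added and 31.9, 34.9 and 27.7 CPM with FTY720 alone. All 3 libraries with LPS were below all 3 without it. The log2 fold change of -0.42 ± 0.17 (SE, n = 3 per group) missed the threshold at an edgeR adjusted p of 0.0508, and passed it in 5 of 16 alternatives, among them without FTY720 replicate 3 (-0.51, adjusted p = 0.0113, range over alternatives 0.0113 to 0.205).

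Rac2 encodes the Rac GTPase of blood cells that switches the oxidase on (chromosome 15, 78559167 to 78572783, minus strand). It lies 296586 bp from Ncf4 on the same chromosome. Rac2 had 57.8, 67.3 and 65.0 CPM with LPS added and 52.4, 57.1 and 64.7 CPM with FTY720 alone. The groups overlapped, since FTY720 replicate 3 exceeded a library with LPS. The difference was 0.12 ± 0.14 on the log2 scale (SE, n = 3 per group; edgeR adjusted p = 0.503), with a 95% interval for the fold change of 0.892 to 1.32, and its sign turned under 3 scalings, to -0.02, -0.22 and -0.04.

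**Figure D1:**
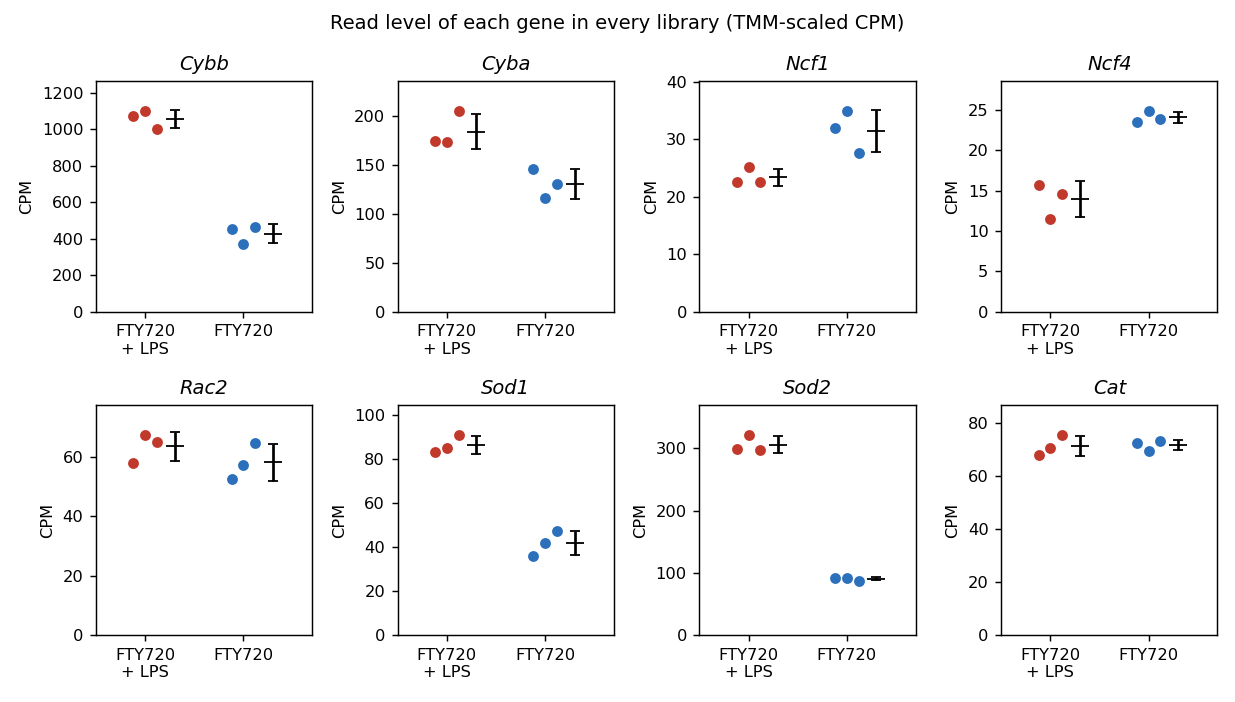
Level of each gene in CPM on a linear axis from 0, with 1 point per library and the mean ± SD (n = 3) beside each group, FTY720 with LPS on the left. The groups are apart for Cybb, Cyba, Ncf1, Ncf4, Sod1 and Sod2, and overlap for Rac2 and Cat, where the means are 63.4 and 58.1 CPM for Rac2 and 71.4 and 71.8 CPM for Cat.

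The dismutases both rose, and the mitochondrial enzyme by more. Sod2, the manganese dismutase of mitochondria (chromosome 17, 13006846 to 13040063, plus strand), had 299, 322 and 298 CPM with LPS added, against 92.4, 92.4 and 87.9 CPM with FTY720 alone. Every library with LPS stood at more than 3-fold the level of every library without it. The log2 fold change was 1.75 ± 0.11 (SE, n = 3 per group; edgeR adjusted p = 5.72e-12; 95% interval 2.88-fold to 3.95-fold), and it stood at 1.30 with loess offsets.

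Sod1, the copper and zinc dismutase of the cytosol (chromosome 16, 90220754 to 90226329, plus strand), had 83.3, 85.2 and 91.2 CPM with LPS added and 36.3, 42.0 and 47.4 CPM with FTY720 alone. No library with LPS came near the FTY720 range. It rose by 1.04 ± 0.14 on the log2 scale (SE, n = 3 per group; edgeR adjusted p = 1.77e-06), with a 95% interval of 0.75 to 1.32. With total library size alone the rise was 0.70, just under the threshold (edgeR adjusted p = 0.0454). The Sod1 gene body overlaps Scaf4 on the other strand, although no exons do, and the counts are of the sense strand.

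Cat, which removes hydrogen peroxide (chromosome 2, 103453849 to 103485160, minus strand), had 67.9, 70.7 and 75.6 CPM with LPS added and 72.6, 69.5 and 73.2 CPM with FTY720 alone. The FTY720 libraries lay inside the range of those with LPS. The log2 fold change was -0.01 ± 0.13 (SE, n = 3 per group; edgeR adjusted p = 0.951), and its 95% interval leaves room for a fold change between 0.829 and 1.19.

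**Figure D2:**
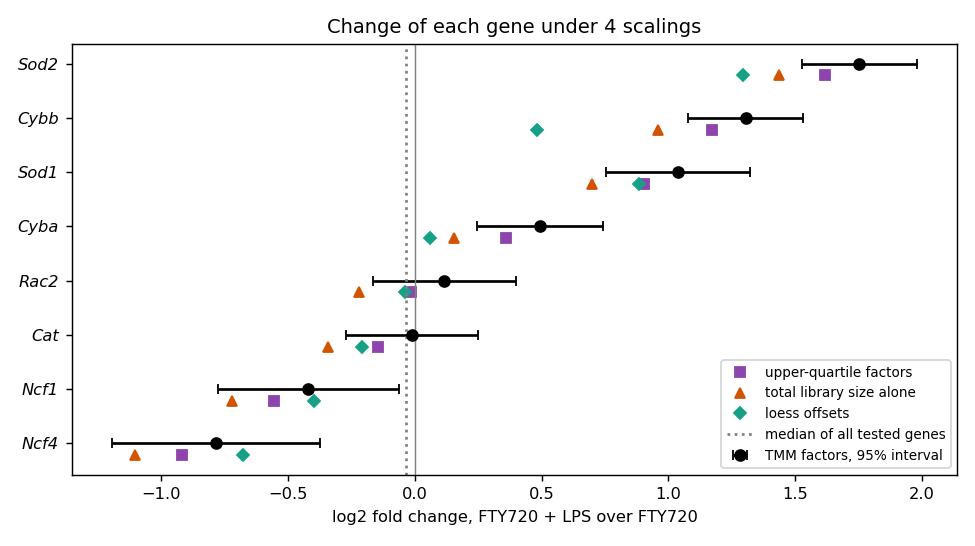
Log2 fold change of FTY720 with LPS over FTY720 for each gene, with the 95% interval of the edgeR fit with TMM factors in black, and the value under upper-quartile factors, total library size alone and loess offsets. The order runs from Sod2 at 1.75 to Ncf4 at -0.78, and with loess offsets Cybb stands at 0.48, Cyba at 0.06 and Sod2 at 1.30.

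Ratios of reads within a library do not depend on a single scaling factor per library, although they do depend on offsets that vary with expression level. Sod2 had 3.58, 3.77 and 3.26 reads per Sod1 read with LPS added, against 2.54, 2.20 and 1.85 with FTY720 alone, a 1.62-fold higher ratio. Against Cat, Sod2 had 4.39, 4.54 and 3.93 reads per read with LPS added and 1.27, 1.33 and 1.20 with FTY720 alone, a 3.38-fold higher ratio. Both ratios were higher in every library with LPS than in any FTY720 library. With loess offsets, the log2 change of Sod2 exceeded that of Sod1 by 0.41, against 0.70 from the reads, and that of Cat by 1.504, against 1.76.

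Cybb had 6.15, 6.33 and 4.88 reads per Cyba read with LPS added, against 3.09, 3.19 and 3.57 with FTY720 alone, a 1.76-fold higher ratio of the catalytic subunit to its partner; the log2 difference was 0.81, and 0.42 with loess offsets. The ratio of Ncf1 to Ncf4 was 1.42, 2.16 and 1.54 with LPS added and 1.35, 1.40 and 1.16 with FTY720 alone. Its log2 difference of 0.37 leaned on the second library with LPS and was 0.19 without it. For each of these 4 ratios the groups did not overlap, and the exact two-sided permutation test gave p = 0.1 (0.1 after Benjamini-Hochberg adjustment over the 4), and 3 libraries against 3 can reach no smaller p.

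**Figure D3:**
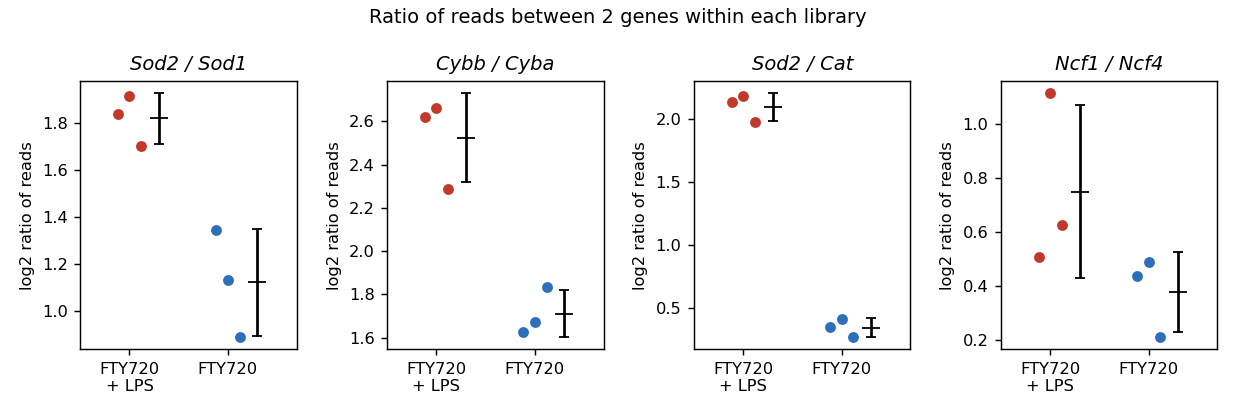
Log2 ratio of sense reads between the named genes within each library, with 1 point per library and the mean ± SD (n = 3) beside each group, FTY720 with LPS on the left. The gap between groups is widest for Sod2 over Cat, at 2.10 ± 0.11 with LPS added and 0.34 ± 0.07 with FTY720 alone, and narrowest for Ncf1 over Ncf4, at 0.75 ± 0.32 and 0.38 ± 0.15.

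Levels were compared between genes as CPM per kb of the longest coding transcript in GENCODE's basic set. With LPS added the order was Cyba (248 ± 24.3 CPM per kb, SD, n = 3), Cybb (223 ± 10.5), Sod1 (135 ± 6.42), Sod2 (52.2 ± 2.33), Cat (27.3 ± 1.48), Rac2 (20.9 ± 1.63), Ncf4 (9.53 ± 1.51) and Ncf1 (8.13 ± 0.506). Only Ncf4 and Ncf1 overlapped as neighbours in that order. With FTY720 alone it was Cyba (176 ± 20.1), Cybb (90.1 ± 10.7), Sod1 (65.4 ± 8.66), Cat (27.5 ± 0.749), Rac2 (19.1 ± 2.04), Ncf4 (16.5 ± 0.470), Sod2 (15.5 ± 0.442) and Ncf1 (10.9 ± 1.26), and no neighbours overlapped. Sod2 therefore stood above Cat, Rac2 and Ncf4 with LPS added and below them with FTY720 alone. The membrane pair stood far above the cytosolic subunits in both groups. Some places rest on the length used. All annotated exons of Sod1 cover 3970 bases, against 641 in its longest coding transcript. Per kb of all annotated exons, Sod1 had 21.8 CPM with LPS added and 10.6 CPM with FTY720 alone, below Cat in both groups. By the same length Cybb averaged 182 CPM per kb and Cyba 177 with LPS added, with ranges that overlapped.

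**Figure D4:**
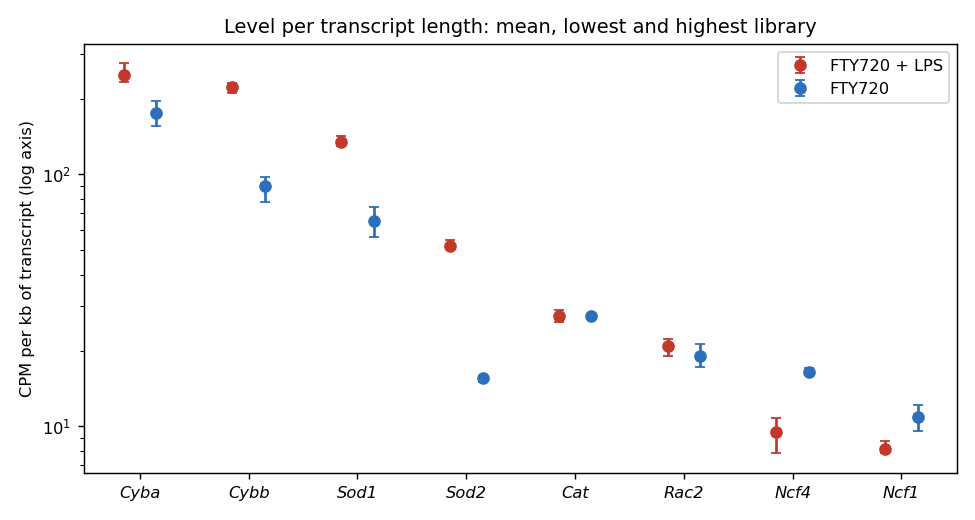
CPM per kb of transcript on a log axis for each gene, with the mean as a point and bars from the lowest to the highest of 3 libraries, FTY720 with LPS left of FTY720. Cyba and Cybb are highest at 248 and 223 CPM per kb with LPS added, and Sod2 changes its place most, with 52.2 CPM per kb with LPS added and 15.5 CPM per kb with FTY720 alone.

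Other genes around the oxidase, listed by role, moved in both directions. Of 61 listed, 60 were in the table under the listed symbol and 48 were tested. Of those tested, 17 were called higher and 12 lower (median log2 fold change 0.08). Over all 10124 tested genes, TMM factors gave 23.3% higher and 22.7% lower. These are the shares to read beside each list count that names no other scaling. Upper-quartile factors called 1885 of these genes higher and 2969 lower, loess offsets 2047 and 1929, and total library size alone 761 and 2684. Among 9 further oxidase subunits and partners, 3 were higher and 2 lower (median 0.07). Hvcn1, the proton channel that balances the charge the oxidase moves, fell by 1.30 ± 0.16 on the log2 scale (SE, n = 3 per group; edgeR adjusted p = 3.8e-07), to 35.9 ± 7.67 CPM with LPS added against 88.0 ± 10.2 CPM with FTY720 alone. Tspo, a mitochondrial outer membrane protein used as a marker of activated microglia, rose by 0.72 ± 0.14 (adjusted p = 0.000307), and lost its call with total library size alone (0.40, adjusted p = 0.289). Rac1, the widely expressed relative of Rac2, stood at 0.29 ± 0.11 (adjusted p = 0.0399), but was lower with loess offsets (-0.32, adjusted p = 0.00828) and was at -0.062 with total library size alone. Its call held in only 6 of 16 alternatives, since in 8 others it kept its sign but missed the threshold (adjusted p over all alternatives 5.53e-05 to 0.894).

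Rac regulators were mostly lower, with 6 of 10 called lower and 2 higher (median -0.62). With total library size alone 6 were lower and 0 higher, beside 2684 and 761 of all 10124 tested genes. Arhgap25, a GTPase-activating protein for Rac in phagocytes, fell by 2.14 ± 0.29 (SE, n = 3 per group; edgeR adjusted p = 2.14e-06). Tiam2, a Rac exchange factor, fell by 1.66 ± 0.35 (adjusted p = 0.000457). Chn2, a chimaerin that speeds up GTP hydrolysis by Rac, fell by 1.16 ± 0.32 (adjusted p = 0.00543). These calls rest on few reads. Summed over the libraries with LPS added and over the FTY720 libraries, reads were 46 and 292 for Arhgap25. Tiam2 had 22 and 102 reads and Chn2 25 and 82. Other NADPH oxidases were scarcely detected: none (0) of the 9 listed genes had enough reads to be tested, and Nox4 had 5 reads over the libraries with LPS added and 3 reads over the FTY720 libraries. Noxo1, an organiser subunit, had 8 and 15 reads, and Duox2, an oxidase of epithelia, 5 and 2.

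Of 17 tested genes for the removal of superoxide and peroxide, 10 were higher and 2 lower (median 0.62). The count depended on scaling, with 9 higher under upper-quartile factors, 7 with loess offsets and 3 with total library size alone. In each, 2 were lower. Of all 10124 tested genes, the same scalings called 1885, 2047 and 761 higher, in that order. Glrx, glutaredoxin, rose by 2.37 ± 0.19 (SE, n = 3 per group; edgeR adjusted p = 6.42e-10) to 46.6 ± 6.02 CPM, against 8.84 ± 1.26 CPM with FTY720 alone. Txnrd1, thioredoxin reductase, rose by 2.14 ± 0.10 (adjusted p = 5.48e-14, with a difference of 1.36 under loess offsets) and its substrate thioredoxin, Txn1, by 1.07 ± 0.12 (adjusted p = 1.87e-07, with a difference of 0.59 under loess offsets). Among 12 genes that supply NADPH, 2 were higher and 2 lower (median -0.02), and 0 were higher with upper-quartile factors, total library size alone or loess offsets. Idh1, the cytosolic isocitrate dehydrogenase, fell by 1.28 ± 0.23 (adjusted p = 0.000105). Idh2, its mitochondrial counterpart, fell by 1.11 ± 0.43 (adjusted p = 0.0385) on 17 reads with LPS added and 53 with FTY720 alone, a call lost in 8 of the 15 alternatives that tested it. Tkt, transketolase, stood at 0.37 ± 0.13 (adjusted p = 0.0199) and at 0.0071 with loess offsets.

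**Figure D5:**
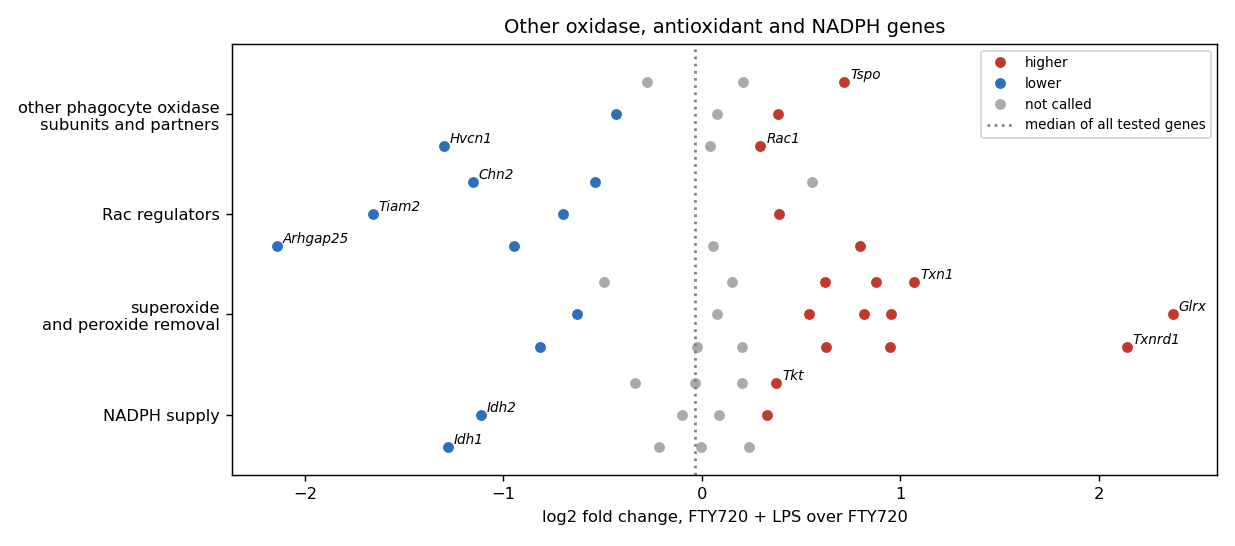
Log2 fold change of FTY720 with LPS over FTY720 for the 48 tested genes of the lists, by role, coloured by their call at an adjusted p under 0.05, with the median of all tested genes (-0.04) as a dotted line and the genes described in the text named. Rac regulators lie mostly to the left and genes of superoxide and peroxide removal mostly to the right.

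Among 3665 other genes with a mean log2 CPM of at least 5, those whose centred profile over the 6 libraries lay near that of Sod2 included Slc7a8, an amino acid transporter (root-mean-square distance 0.069 log2 CPM), and H2-Q4, a class I histocompatibility gene whose reads may be split among near-identical relatives (0.070). Nearest to Cybb were Rapgef6, an exchange factor for Rap GTPases (0.047), Ppp1r2, an inhibitor subunit of protein phosphatase 1 (0.052), and Stip1, a co-chaperone (0.062). Such distances follow mostly from the size of the group difference, which was 1.75 for Slc7a8 and 1.36 for Rapgef6 on the log2 scale.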

How the data were processed

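The authors deposited raw read counts per gene for each library, with gene symbols and columns for both strands and for each strand; their layout is that of STAR gene counts. Per the submitters' processing notes, CASAVA 1.8.2, Trimmomatic 0.33, STAR 2.5.1 and DESeq2 were used with the mouse build mm10; the sources used here name no annotation or settings. Sense counts (98.4% to 98.9% of gene reads) were used. Rows that name no gene, 74.5% to 79.2% of listed reads, were left out. The test was that of edgeR 4.0.16 under R 4.3.3 (quasi-likelihood test, TMM factors, filterByExpr with a minimum count of 10, Benjamini-Hochberg over 10124 genes), after the script was tested on simulated data. Standard errors were taken as the size of the log2 fold change over the root of F. GENCODE M21 (GRCm38, which is mm10) gave positions and lengths, and promoters from RefSeq (GRCm38.p6), where 6 of the 8 members matched. All replicate pairs differed by more than sampling noise, but replicates 1 and 2 of each group differed least. Their chi-square per degree of freedom was 1.28 with LPS added and 1.31 with FTY720 alone, against 1.63 to 4.39 for the other pairs. A count of 0 allows up to 3 reads, or 0.868 to 1.23 CPM if libraries are scaled by their gene reads without TMM factors. In the TMM-adjusted CPM used elsewhere, 1 read was 0.237 CPM in FTY720 replicate 3 and 0.504 CPM in replicate 3 with LPS added. The limits therefore differ on that scale. Such limits cover counting error only. Alternatives were other scalings, DESeq2 1.42.0, no filter on low counts, unstranded counts, a replicate block and leaving out or summing libraries. From each list of related genes, up to 3 called genes with the largest change and a mean log2 CPM of at least 1 are named, or the 2 most abundant by mean CPM where none was called, plus Rac1 and Nox4. For Sod2 and Cybb, genes among the 3 with the nearest profile are named. Some genes that these rules select are not reported here. Cybc1 is not analysed here, since no table pairs that symbol with a row. The members and lists were chosen with earlier results of these data known.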

Additional observations from a re-analysis of the deposited data

Results flagged for a closer look

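Reads on the strand opposite to Sod2, outside the counts used above, were higher in every library with LPS added than in any FTY720 library, with 19 reads in all (6, 7 and 6) against 6 reads (3, 2 and 1). They made up 0.879% of the reads of both strands with LPS added and 0.647% with FTY720 alone, and no annotated gene overlaps Sod2. Sense reads of Sod2 were higher as well, with 2143 in all with LPS added against 921. Over all genes, sense reads were 98.4% to 98.9% of gene reads per library. The opposite-strand share at Sod2 was therefore below that of all genes. Whether these reads come from a transcript was not tested.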

How the results depend on the processing

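Over 16 alternatives, Sod2, Cybb, Sod1 and Ncf4 kept their direction and their call. Sod1 came nearest to losing its call, with total library size alone (0.70, edgeR adjusted p = 0.0454). Cyba lost its call with total library size alone (0.15) and with loess offsets (0.059). Ncf1 gained a call with both strands together (-0.45), upper-quartile factors (-0.55), total library size alone (-0.72) and without the ribosomal-RNA-like rows (-0.43), so that 2 members were then called lower rather than 1. The sign turned for Rac2 with upper-quartile factors (-0.016), total library size alone (-0.22) and loess offsets (-0.037), for Cat with DESeq2 size factors (0.0040), the DESeq2 test (0.0042) and replicates 1 and 2 summed (0.025), and for Rac1 with total library size alone (-0.062) and loess offsets (-0.32). Pathway genes called higher numbered 11 with upper-quartile factors, 3 with total library size alone and 9 with loess offsets, beside 17. Over all genes, 761 were called higher with total library size alone, beside 2362 with TMM factors, and 1529 were called lower by DESeq2, beside 2297. Higher calls made up 50.7% of calls with TMM factors, 38.8% with upper-quartile factors and 22.1% with total library size alone, which moved the median of all genes by -0.13 and -0.32. Relative to that median, Cyba stood at 0.53, 0.53 and 0.51, Ncf1 at -0.38, -0.38 and -0.36 and Rac2 at 0.15, 0.15 and 0.14 under the 3 scalings. Loess offsets moved the median by 0.027. Relative to the median under loess offsets, Cyba stood at 0.068, Ncf1 at -0.39 and Rac2 at -0.028. The cause of these dependences was not tested. Leaving out each library gave 1.23 to 1.37 for Cybb, 0.44 to 0.58 for Cyba, -0.51 to -0.32 for Ncf1 (called without FTY720 replicate 3), -0.86 to -0.64 for Ncf4, 0.05 to 0.21 for Rac2, 0.95 to 1.14 for Sod1, 1.73 to 1.801 for Sod2 and -0.025 to 0.055 for Cat, with 4 members higher and 1 to 2 lower, 12 to 19 pathway genes higher and 9 to 12 lower, and 2043 to 2722 genes higher and 1702 to 2495 lower in all. The log2 differences of ratios ranged over the same fits from 0.58 to 0.81 for Sod2 to Sod1, 0.74 to 0.93 for Cybb to Cyba, 1.71 to 1.82 for Sod2 to Cat and 0.19 to 0.49 for Ncf1 to Ncf4. As the difference of changes fitted with loess offsets, an alternative chosen after seeing the data, they were 0.41, 0.42, 1.504 and 0.28 in that order. Libraries of the same number did not deviate together (correlations -0.022, -0.026 and -0.073), and none correlated best with its own number. Pairing by number was thus not seen, but weak correlations with 3 libraries per group cannot exclude it. With a replicate block 4 members were higher and 1 lower, with 2292 genes higher and 2174 lower in all, and no call of a member changed. At 27 to 117 reads per library, Ncf4 and Ncf1 have the least precise values.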

Other observations

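Summed over the 3 enzymes per kb of transcript, catalase made up 12.6% to 13.0% of the level with LPS added and 24.0% to 27.7% with FTY720 alone, and Sod2 made up 22.9% to 25.6% and 12.8% to 15.7%. The shares depend strongly on the length used: per kb of all annotated exons, a comparison chosen after seeing the data, catalase made up 33.5% to 35.4% with LPS added and 57.3% to 60.2% with FTY720 alone, and Sod2 36.4% to 39.9% and 18.0% to 20.0%. By both lengths the share of catalase was lower, and that of Sod2 higher, in every library with LPS than in any FTY720 library. The share of Sod1 overlapped between groups by the coding transcript, with 61.8% to 64.1% with LPS added and 56.5% to 63.2% with FTY720 alone, and did not by all exons, with 26.6% to 28.1% and 19.8% to 24.5%. Among the 5 oxidase subunits, Cybb made up 40.1% to 46.0% of the summed level per kb with LPS added and 27.6% to 30.6% with FTY720 alone (42.7% to 48.5% and 29.6% to 32.6% by all exons).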
